A study of Mus musculus with 56 samples.

Results

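The genes described here are the 9 that make triglyceride-rich lipoproteins in liver or set how fast lipoprotein lipase clears them: Apob, Mttp, Apoc3, Apoa1, Apoa4, Apoa5, Apoe, Angptl4 and Angptl8. They were taken by name, for the link between human GCKR and plasma triglyceride, out of 52230 genes in the liver transcriptomes, and all 9 were detected in every library. The livers came from male mice of the knock-in line GCKR-P446L-EMI-B6N, in which residue 446 of GKRP is either proline (allele P) or leucine (allele L), GKRP being the regulatory protein that holds glucokinase in the hepatocyte nucleus. All animals, controls included, had eaten a high-fat high-sugar diet (HFHSD, by energy 45% fat, 20% protein and 35% carbohydrate, with 10% glucose and 5% fructose in the water) for 20 weeks. Without drug there were 10 PP, 8 PL and 10 LL mice, and with a glucokinase activator (GKA, 3 mg/kg, mixed into the diet, compound not named in the labels) again 10 PP, 8 PL and 10 LL. PP mouse 7 was left out of the tests, which leaves 9 PP mice without GKA and 55 mice in all; its Mttp value, 221 depth-scaled reads (CPM), lay below the other 9 PP mice (231 to 326), and its other 8 genes lay within their range. The residue change cannot be read from gene counts, so genotype rests on the labels.

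As background, the hepatocyte builds very-low-density lipoprotein (VLDL) on a single molecule of apolipoprotein B (Apob), which microsomal triglyceride transfer protein (Mttp) loads with triglyceride in the endoplasmic reticulum. In the circulation lipoprotein lipase takes the triglyceride off. Apolipoprotein C-III (Apoc3) and the secreted inhibitors Angptl4 and Angptl8 slow that step, while apolipoprotein A-V (Apoa5) speeds it. Apolipoprotein E (Apoe) is the ligand by which the liver takes remnants back, apolipoprotein A-I (Apoa1) is the main protein of high-density lipoprotein, and apolipoprotein A-IV (Apoa4) rides on triglyceride-rich particles and is made by a fat-laden liver. Angptl8 is known as a feeding-induced and Angptl4 as a fasting-induced gene.

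The libraries held between 5189852 and 8093368 estimated reads each, with a median of 6555851. Hepatocyte markers (9 of 10 listed were in the files, all tested) summed to between 84670.2 and 140312 CPM per liver. Of 8 enterocyte markers (1 tested), Alpi, Sis, Cdx1 and Cdx2 were at 0 in all 55 livers and the list summed to 61.2 to 171 CPM. Of 9 adipocyte markers (5 tested), Adipoq and Lep were at 0 in all 55 and the list summed to 888 to 4634 CPM. The sums were not split by gene, and whether they came from other tissue or from liver cells was not tested. Intestine and adipose tissue are the other tissues that make Apoa4 and Apob, or Angptl4 and Angptl8. In whole liver, fewer cells of a type and less RNA per cell cannot be told apart.

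Positions are on GRCm39. Apoa1 (chr9:46139878-46142212, plus strand), Apoc3 (chr9:46142527-46146934, minus strand), Apoa4 (chr9:46151994-46154757, plus strand) and Apoa5 (chr9:46179931-46183217, plus strand) lie in a single cluster, and Angptl8 (chr9:21746786-21748643, plus strand) is on the same chromosome inside the Dock6 locus, with which it shares 0 exon bases. Apob (chr12:8027648-8066835, plus strand), Mttp (chr3:137795612-137850729, minus strand), Apoe (chr7:19430034-19434947, minus strand) and Angptl4 (chr17:33992724-34000804, minus strand) are elsewhere. The 250 bases before the start of the most-read transcript are printed for 4 genes: Apoa5 and Angptl8, which had the smallest p-values per L allele, Apoa4, the most variable, and Apob, the scaffold of VLDL. All are given 5′ to 3′ on the strand of the gene, from GRCm39, with capitals for the letters CACGTG (an E-box, read by clock and carbohydrate-responsive factors), AGGTCA or its reverse complement TGACCT (a hexamer read by nuclear receptors), and TATAAA or its reverse complement TTTATA.

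Apoa5 (chr9:46179681-46179930, plus strand): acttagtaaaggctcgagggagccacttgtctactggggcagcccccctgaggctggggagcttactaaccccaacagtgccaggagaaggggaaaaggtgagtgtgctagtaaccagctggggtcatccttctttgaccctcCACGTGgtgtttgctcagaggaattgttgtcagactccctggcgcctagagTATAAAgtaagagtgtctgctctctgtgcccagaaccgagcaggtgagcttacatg
Angptl8 (chr9:21746536-21746785, plus strand): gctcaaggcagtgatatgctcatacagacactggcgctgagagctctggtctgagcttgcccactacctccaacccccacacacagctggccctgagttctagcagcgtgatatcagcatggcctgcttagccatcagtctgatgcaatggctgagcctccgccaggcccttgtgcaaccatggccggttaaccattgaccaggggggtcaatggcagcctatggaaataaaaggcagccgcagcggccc
Apoa4 (chr9:46151744-46151993, plus strand): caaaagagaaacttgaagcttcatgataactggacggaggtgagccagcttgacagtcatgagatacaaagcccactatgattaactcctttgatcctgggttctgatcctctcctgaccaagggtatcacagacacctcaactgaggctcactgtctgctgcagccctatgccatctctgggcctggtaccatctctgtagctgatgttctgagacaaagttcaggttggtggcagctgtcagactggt
Apob (chr12:8027398-8027647, plus strand): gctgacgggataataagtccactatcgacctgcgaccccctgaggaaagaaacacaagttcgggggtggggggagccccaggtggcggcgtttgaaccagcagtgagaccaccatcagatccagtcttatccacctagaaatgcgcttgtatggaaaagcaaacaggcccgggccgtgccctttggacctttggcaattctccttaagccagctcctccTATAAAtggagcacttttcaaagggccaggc

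Apoa5 held an E-box 107 bases and TATAAA 56 bases before its start, Apob held TATAAA at 31 bases, and none of the letters searched was in these windows of Angptl8 and Apoa4. Over the 11476 tested genes with such a window, 7.68% held the E-box, 11.9% the nuclear receptor hexamer and 7.75% TATAAA on either strand. Of the 9 genes, 1 held the E-box (Apoa5), 2 that hexamer (Mttp and Apoc3) and 4 TATAAA (Apob, Apoc3, Apoa5 and Angptl4). These are matches of letters and not shown to be sites. Some windows lay in annotated exons of the same gene: 250 of 250 bases for Angptl4 and Apoe, 184 for Apoc3 and 65 for Mttp. The 4 windows printed held 0 such bases, and this overlap was not counted for the other tested genes.

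Per length (TPM, which Salmon scales for transcript length and depth), Apoe was the highest, with a median of 30228 TPM over 55 mice and rank 3 among all genes. Apoa1 (7213 TPM, rank 23), Apoc3 (4792 TPM, rank 34) and Apoa5 (1141 TPM, rank 78) followed. Apob (527 TPM, rank 136) and Apoa4 (499 TPM, rank 140) were close to each other, and the transfer protein Mttp (42.4 TPM), Angptl8 (39.2 TPM) and Angptl4 (23.7 TPM) were the lowest. Together the 9 took between 2.26% and 4.77% of the reads of a liver.

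The 9 genes differed widely in their spread between mice. Mttp was the steadiest, at 195 to 338 CPM over 55 mice, and its SD within groups was 0.19 on the log2 CPM scale. Apoa4 was the least steady, at 427 to 5860.2 CPM, a 13.7-fold range with a within-group SD of 0.97. Angptl8 (7.56-fold, SD 0.64) and Angptl4 (5.72-fold, SD 0.50) came next. For each of the 9 genes all 6 groups overlapped, and in the order of the 6 group means no 2 neighbours differed by more than 0.47 of the within-group SD. The gap between the highest and the lowest group mean exceeded 1 such SD for Apoa5 (1.35) and Apoa4 (1.23) and lay below it for the other 7. The plot of all livers by group shows these spreads.

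**Figure D1:**
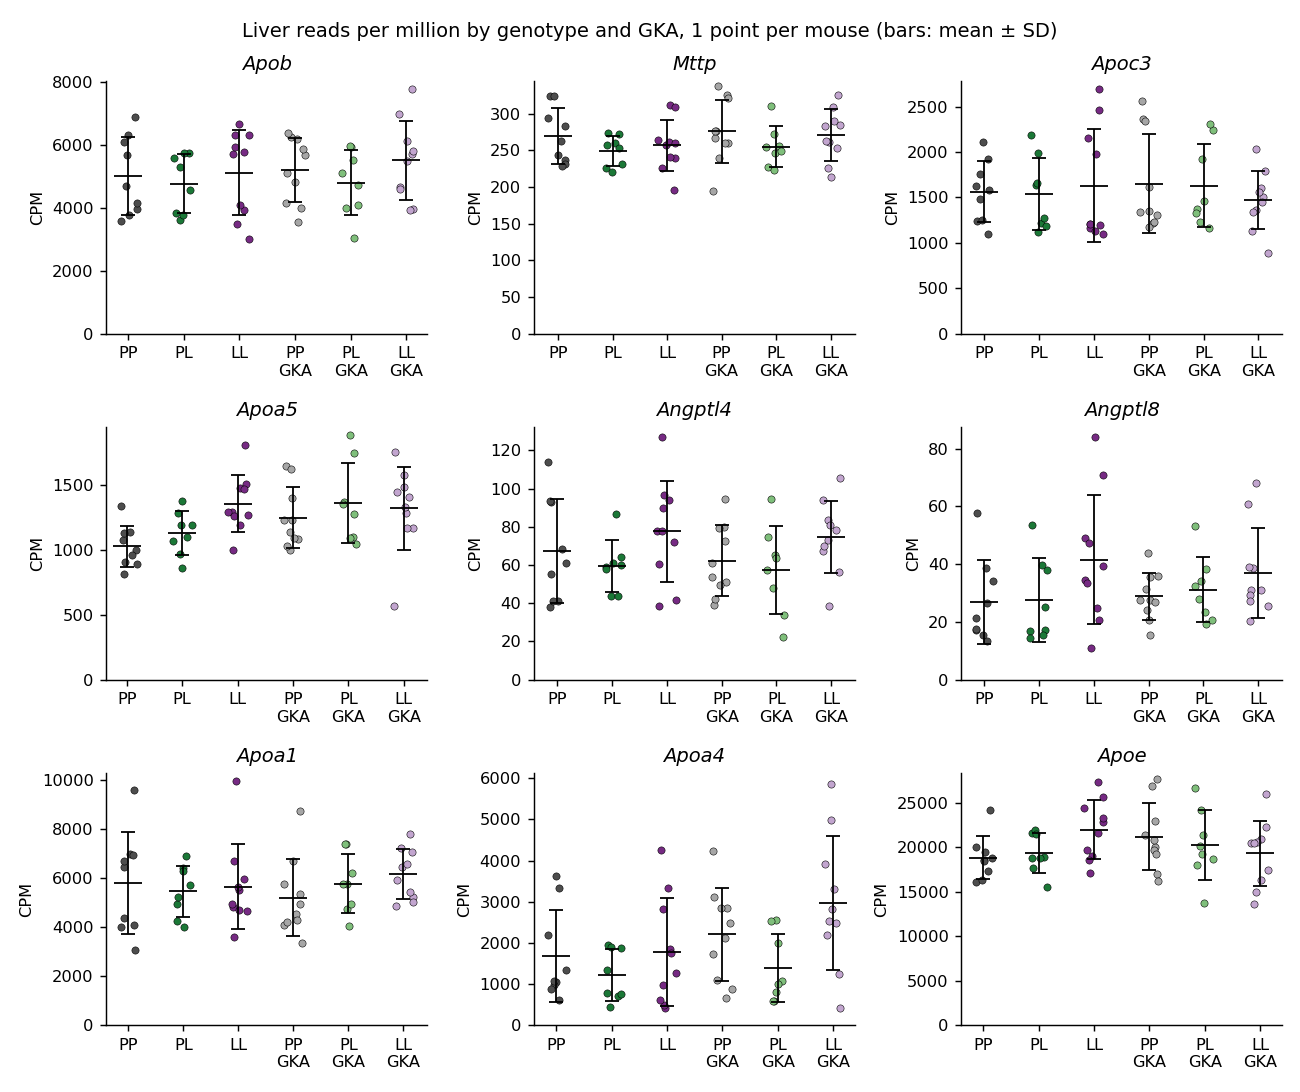
Each panel gives 1 gene, with reads in CPM on the vertical axis from 0 and the 6 groups on the horizontal axis; each point is a mouse and the bars are mean ± SD. The 6 groups overlap in all 9 panels, and Apoa4 spans 427 to 5860.2 CPM.

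The first question was whether the genotype changed these genes on the HFHSD. None of the 9 was a DEG (differentially expressed gene) by LL genotype without GKA: 0 of 9 reached p below 0.05 after Benjamini-Hochberg adjustment together with a ratio of LL to PP of 1.3 or more, or of 0.7 or less, in the edgeR quasi-likelihood test, where 0.0854% of the 10537 genes tested (9 genes) did. At an unadjusted p below 0.05 there was 1 of 9 (Apoa5), against 11.8% of all genes tested. DESeq2, the package the study used for its DEGs, called 1 of 9 (also Apoa5) among 109 genes. The point estimates were higher in LL for 7 genes and lower for 2, with a median log2 fold change of 0.083 beside 0.012 over all genes. Over the 14 comparisons made, 0 of 126 gene tests passed, and the smallest adjusted p was 0.112. At an unadjusted p below 0.05 there were 10 of 126, beside 3.18% to 15.5% of all genes in the single comparisons. On counts simulated at the depth of these 2 groups, 42.1% of genes changed 1.5-fold and 82.5% of those changed 2-fold were called.

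Among the assembly genes, Apob, the scaffold of VLDL, had 3579.7, 4694 and 6876 CPM as lowest, median and highest value in PP, and 3012, 5743 and 6662 CPM in LL. Both groups covered nearly the same span. On the log2 scale LL was above PP by 0.031 ± 0.17 (SE), with a 95% interval of -0.32 to 0.38 and an adjusted p of 0.965. With the clock component (the first principal component of 17 clock genes, with a mean of -0.62 in PP and 0.50 in LL) as a covariate the Apob estimate was 0.45, outside that interval (p = 0.0123, adjusted p = 0.212). With the library slope on transcript length (described below) as a covariate the Apob estimate was 0.019. For Mttp, which lipidates Apob, the same 3 values were 229, 263 and 324 CPM in PP and 196, 259 and 312 CPM in LL, with a log2 fold change of -0.073 ± 0.096 (SE), interval -0.27 to 0.13. The interval of Mttp was the narrowest of the 9 and reached from 0.828-fold to 1.09-fold, and that of Apob from 0.800-fold to 1.31-fold.

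Of the regulators of lipoprotein lipase, Apoa5, which activates triglyceride clearance, had the smallest p-value of the 9. In PP its lowest, median and highest values were 813, 997 and 1333 CPM, in PL 859, 1141 and 1373 CPM and in LL 996, 1288 and 1805 CPM. The LL mice sat high: 9 of 10 were above the PP median and 4 of 10 above the highest PP mouse, so that the groups overlapped only in part. The log2 fold change was 0.40 ± 0.11 (SE), or 1.32-fold (95% interval 1.13 to 1.54), with p = 0.00129 and an adjusted p of 0.112 by edgeR, which does not pass. DESeq2 gave 0.40 with an adjusted p of 0.0228, and edgeR without LL mouse 42 gave 0.44 with 0.044, the only 2 of its 27 alternative fits that passed, whose adjusted p ranged from 0.0228 to 0.978. On TPM the difference was only 0.090 (limma, adjusted p = 0.978). Apoa5 shares 524 exon bases with the lncRNA Gm47544 on the opposite strand, whose level was 7.02 ± 0.89 (SD, n = 9) log2 CPM in PP and 6.66 ± 2.23 (SD, n = 10) in LL. Strand use is not given in the sources used here, so reads in the shared bases cannot be told apart.

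Angptl8, the feeding-induced inhibitor, had the largest estimated difference by LL genotype. Its lowest, median and highest values were 13.5, 21.3 and 57.7 CPM in PP, 14.5, 21.3 and 53.4 CPM in PL and 11.1, 37.0 and 83.9 CPM in LL. In LL, 8 of 10 mice exceeded the PP median, 2 exceeded the highest PP mouse and 1 was below the lowest. The log2 fold change of 0.62 ± 0.32 (SE), or 1.54-fold (95% interval 0.964 to 2.46), and an adjusted p of 0.476, did not exceed the spread between mice. With the clock component as a covariate it was 0.24, on log2(TPM + 1) by limma 0.90 (adjusted p = 0.826), and 0.45 without LL mouse 46 to 0.85 without PP mouse 4. Angptl4, the fasting-induced inhibitor, ran from 37.8 to 114 CPM in PP (median 60.9) and from 38.7 to 127 CPM in LL (median 77.7), a log2 fold change of 0.21 ± 0.23 (SE). Neither inhibitor separated the genotypes.

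Apoc3, the apolipoprotein that blocks lipase and remnant uptake, was not called on either scale. Its lowest, median and highest values were 1102, 1587 and 2107 CPM in PP and 1101, 1206 and 2691 CPM in LL, and the log2 fold change was 0.060 ± 0.19 (SE), interval -0.34 to 0.46. On TPM the direction turned: PP had 6401 ± 2206 TPM (SD, n = 9) and LL 4087 ± 1520.1 TPM (SD, n = 10), with a difference of -0.67 on the log2(TPM + 1) scale and an adjusted p of 0.835 by limma. It turned also with the clock component as a covariate (-0.57, adjusted p = 0.15), while with the library slope on transcript length as a covariate it was 0.0050. Apoc3 therefore has no direction by genotype that held across these fits.

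The remaining apolipoproteins showed no call either. Apoe, the remnant ligand, had 16161, 18600.2 and 24244 CPM as lowest, median and highest value in PP and 17122, 22266 and 27315 CPM in LL, a log2 fold change of 0.22 ± 0.11 (SE) with an adjusted p of 0.431. The LL mice tended to the upper part of the range, but the interval of -0.0021 to 0.45 took in 0, and with the clock component as a covariate the estimate was -0.0025. Macrophages make Apoe too: their 15 markers summed to 148 to 1002 CPM over the 55 livers, with group medians between 353 and 450.3 CPM, and their part in the Apoe values was not tested. Apoa1, the protein of high-density lipoprotein, ran from 3054 to 9588 CPM in PP and from 3598 to 9941 CPM in LL, with a log2 fold change of -0.037 ± 0.20 (SE). Apoa4 had a median of 1075 CPM and a highest value of 3625 CPM in PP and a median of 1516 CPM and a highest value of 4255 CPM in LL, and its log2 fold change of 0.083 ± 0.43 (SE) carried the widest interval of the 9, -0.81 to 0.98.

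Heterozygous PL mice without GKA gave 0 of 9 DEGs against PP, where 0.151% of genes were called, and 0 of 9 in LL against PL, where 0.00942% were called. At an unadjusted p below 0.05 there were 0 of 9 (beside 10.1% of all genes) and 1 of 9 (beside 4.58%), the latter Apoa5 (0.25 ± 0.11 (SE), adjusted p = 0.972 by edgeR). DESeq2 called 0 of 9 in both, among 68 and 22 genes. The median of Apoa5 in PL (1141 CPM) lay between those of PP and LL, while for Angptl8 the median of PL (21.3 CPM) was close to that of PP.

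Under GKA the genotypes were compared again. By LL genotype 0 of 9 genes were DEGs, where 0.239% of 10460 genes were, with 0 of 9 at an unadjusted p below 0.05, beside 10.4% of all genes, and 0 of 9 among the 89 genes called by DESeq2. Apoa5, the leading gene without GKA, had 996, 1180.0 and 1642 CPM as lowest, median and highest value in PP with GKA and 566, 1369 and 1752 CPM in LL with GKA, a log2 fold change of 0.091 ± 0.15 (SE). LL mouse 53 made up the low end, at 566 CPM where the other 9 had at least 1165 CPM, and without it the log2 fold change was 0.18 (p = 0.122; range over the 20 fits that each leave out 1 mouse, 0.036 to 0.18). Angptl8 had 15.3, 27.6 and 43.9 CPM in PP with GKA and 20.2, 31.0 and 68.0 CPM in LL with GKA, and its log2 fold change of 0.37 ± 0.21 (SE) was positive again, with an adjusted p of 0.585. It was 0.23 without LL mouse 51, the lowest of the fits that each leave out 1 mouse, and 0.45 in the highest. PL against PP and LL against PL under GKA each gave 0 of 9 by edgeR and by DESeq2, with 0% of all genes called by edgeR in both (862 and 902 at an unadjusted p below 0.05, and 36 and 37 called by DESeq2). At an unadjusted p below 0.05 there were 0 of 9 in the first and 1 of 9, Apoa4, in the second.

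Apoa4 in PL with GKA had a lowest, median and highest value of 582, 1043 and 2548 CPM, and in LL with GKA of 431, 2672 and 5860.2 CPM. Of the 10 LL mice, 9 were above the PL median and 5 above the highest PL mouse, but 1 was below the lowest. The log2 fold change of 1.10 ± 0.41 (SE) had p = 0.0136 and an adjusted p of 0.451, so the difference does not pass over the 10491 genes tested.

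A fit of all 55 mice on the number of L alleles (0, 1 or 2), with GKA held, gave the most precise test. Here 3.53% of 11477 genes were called at an adjusted p below 0.05 (405 genes, 172 higher and 233 lower per allele), and 0 of 9 lipoprotein genes were. At an unadjusted p below 0.05 there were 2 of 9, beside 15.5% of all genes, and DESeq2 called 0 of 9 among 477 genes. The 2 were Angptl8, at 0.25 ± 0.097 (SE) log2 per allele (adjusted p = 0.167), and Apoa5, at 0.12 ± 0.046 (SE) (adjusted p = 0.157). With the clock component as a covariate, edgeR gave 0.20 for Angptl8 (p = 0.077) and 0.086 for Apoa5 (p = 0.0886). On log2(TPM + 1) by limma Angptl8 was 0.28 and Apoa5 0.030, and neither passed. For Apob the interval was -0.076 to 0.13 per allele and for Mttp -0.085 to 0.038, while with the clock component as a covariate the estimates were 0.11 for Apob (p = 0.0288, adjusted p = 0.312) and 0.032 for Mttp. In the simulated counts this fit called 75.1% of genes changed 1.5-fold between PP and LL (8.64% of its calls were false) and 95.4% of those changed 2-fold (3.65% false). A test for any difference between the 6 groups called 1.88% of genes (216) and 0 of the 9, with Apoa4 (p = 0.042, adjusted 0.365) and Apoa5 (p = 0.0245, adjusted 0.284) at an unadjusted p below 0.05, beside 12.7% of all genes, and 0 of 9 among the 396 called by DESeq2.

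**Figure D2:**
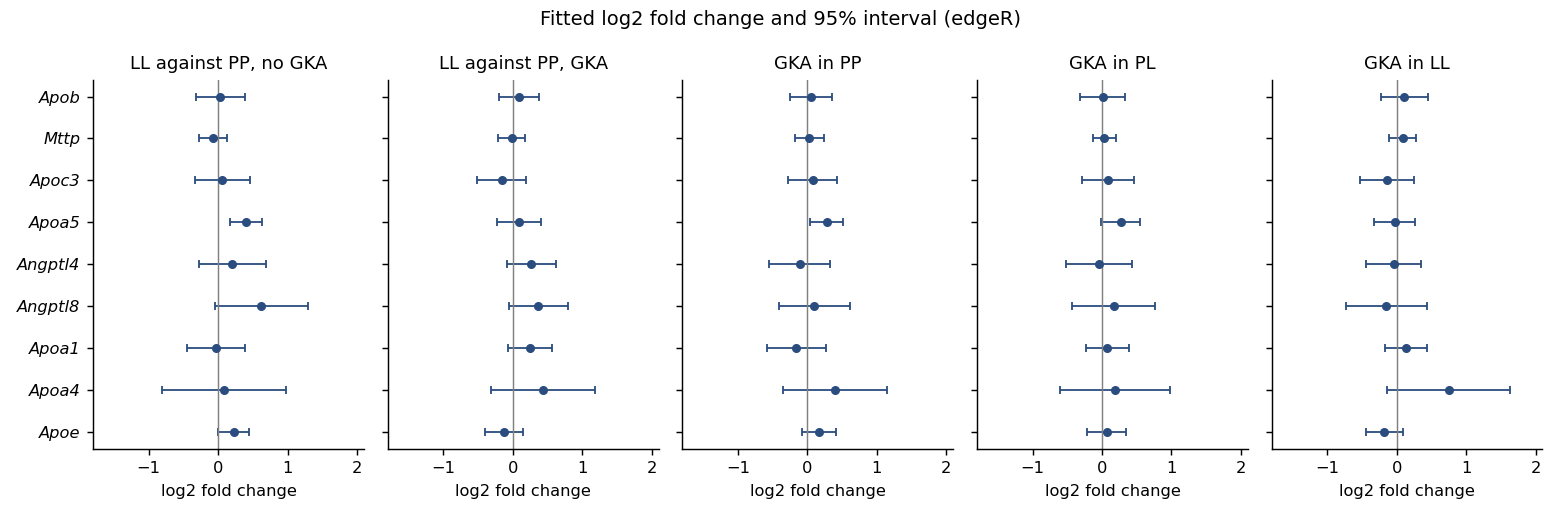
Points are fitted log2 fold changes of the 9 genes and bars are 95% intervals, with LL against PP on the left (without and with GKA) and the effect of GKA within each genotype on the right. The interval that lies farthest from 0 is that of Apoa5 by LL genotype without GKA, 0.18 to 0.63, and the widest are those of Apoa4.

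The second question was the effect of GKA itself. In PP, PL and LL, 0 of 9 genes were called in each, with 0% of all genes called by edgeR in each genotype (376, 331 and 643 at an unadjusted p below 0.05, and 2, 4 and 11 called by DESeq2) and 0 of 9 by DESeq2 in each. Only Apoa5 in PP passed an unadjusted 0.05 (0.28 ± 0.11 (SE), p = 0.0255, adjusted p = 0.9997), and the estimate in PL was close to it (0.27 ± 0.13 (SE)), while in LL, with mouse 53 included, it was -0.031 ± 0.15 (SE). Apoa4 had positive estimates in all 3 genotypes. Its medians without and with GKA were 1075 and 2301 CPM in PP, 1063 and 1043 CPM in PL, and 1516 and 2672 CPM in LL. No difference between genotypes in this estimate passed (interaction tests below). The largest estimate was that in LL, 0.75 ± 0.43 (SE), with an interval of -0.14 to 1.64. Over all genotypes GKA gave 0.50 ± 0.25 (SE) for Apoa4 (adjusted p = 0.947) and 0.16 ± 0.078 (SE) for Apoa5 (p = 0.0462, adjusted p = 0.942), with 0 of 9 and 0% of all genes called (600 genes at an unadjusted p below 0.05, and 3 called by DESeq2) and 1 of 9 at an unadjusted p below 0.05. DESeq2 called 0 of 9 there too.

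Whether GKA acted differently by genotype was tested as an interaction. For LL against PP, 0 of 9 genes and 0% of 11193 passed (644 at an unadjusted p below 0.05, and 2 called by DESeq2), with 1 of 9 at an unadjusted p below 0.05 and 0 of 9 by DESeq2. That gene was Apoe, whose estimate was 0.17 ± 0.12 (SE) for GKA in PP and -0.18 ± 0.13 (SE) in LL, a difference of -0.35 ± 0.16 (SE) with p = 0.0339 and an adjusted p of 0.867. For Apoa5 the difference was -0.31 ± 0.19 (SE) (adjusted p = 0.899), and for Apoa4 0.36 ± 0.59 (SE) (adjusted p = 0.991). For PL against PP, 0 of 9 and 0% of 11152 passed (374 at an unadjusted p below 0.05, and 4 called by DESeq2), with 0 of 9 at an unadjusted p below 0.05 and 0 of 9 by DESeq2. Apoa4 differed there by -0.21 ± 0.55 (SE) (p = 0.707 by edgeR).

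Salmon assigns reads to transcripts, and the 9 genes differed in how many transcripts shared them. Angptl8 and Apoa4 each have 1 listed transcript, which took all their reads. Of Angptl4, 80.4% ± 5.72 (SD, n = 55) of the reads went to Angptl4-202, a transcript annotated as a target of nonsense-mediated decay, and 17.4% ± 4.45 to the coding Angptl4-201. The share of Angptl4-202 was 79.6% ± 4.61 (SD, n = 9) in PP and 80.9% ± 3.24 (SD, n = 10) in LL, and so did not tell the genotypes apart. Apob-202, the coding transcript that spans the whole gene, took 68.9% ± 20.5 and the short Apob-203, which covers the 3′ end (chr12:8062359-8066835), 27.1% ± 15.8. Apoc3-201 took 65.3% on average but between 18.5% and 99.4% in single mice, and the reads of Apoe were spread over 8 transcripts with at least 1% each. TPM divides by the length of the assigned transcript, so a shift between a long and a short transcript changes TPM while the summed count stays.

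**Figure D3:**
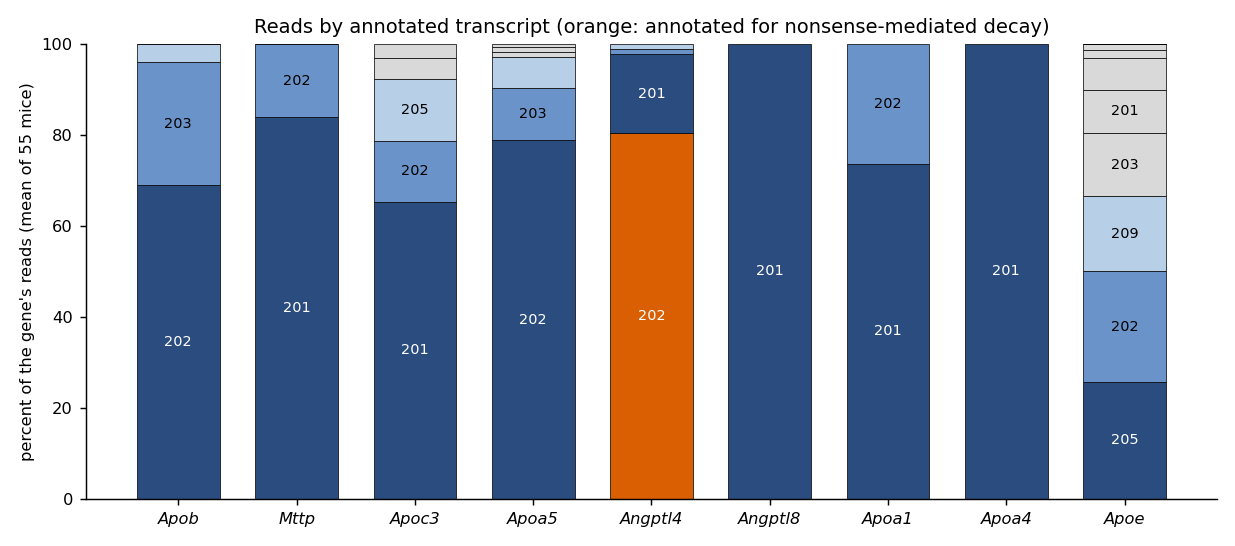
Bars give the mean percent of reads of each gene that went to each annotated transcript over 55 mice, stacked to 100% and labelled with the transcript number. Orange marks nonsense-mediated decay: Angptl4-202 holds 80.4% of the Angptl4 reads.

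Around the 9 genes, 54 others of lipoprotein metabolism were read from a list made with earlier results of these data known, with 53 tested in most comparisons. By LL genotype without GKA 0 of 53 were DEGs, beside 0.0854% of all genes. At an unadjusted p below 0.05, 6 were higher and 2 lower, beside 11.8% of all genes. Their median log2 fold change was 0.072, beside 0.012 over all genes. The 3 with the smallest p were Nr1h4 (0.37 ± 0.11 (SE), adjusted p = 0.146), Creb3l3 (0.29 ± 0.086 (SE)) and Nr0b2 (-0.79 ± 0.26 (SE)). Under GKA 1 of 53 was a DEG, beside 0.239% of all genes: Nr1h4, the bile acid receptor FXR, known to restrain hepatic triglyceride output. Its lowest, median and highest values were 51.2, 66.1 and 76.9 CPM in PP with GKA and 70.0, 93.2 and 112 CPM in LL with GKA, so that the groups overlapped in the lower LL livers, and it rose by 0.47 ± 0.096 (SE) log2 (adjusted p = 0.0401). The call was lost when any 1 of 12 of the 20 mice was left out (PP mice 11, 12, 16, 18 and 19 and LL mice 47, 49, 51, 52, 53, 54 and 56), with adjusted p up to 0.0747 and log2 fold changes of 0.43 to 0.50.

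Per L allele, 5 of 53 passed, 2 higher and 3 lower, beside 3.53% of all genes. At an unadjusted p below 0.05 there were 9 of 53, beside 15.5% of all genes. Nr1h4 rose (0.21 ± 0.032 (SE) log2 per allele, adjusted p = 3.9e-05) and Nr0b2, the repressor SHP that Nr1h4 is known to induce, fell (-0.44 ± 0.087 (SE), adjusted p = 0.00122). Nr0b2 had 19.9, 32.5 and 69.2 CPM as lowest, median and highest value in PP without GKA and 11.7, 20.0 and 43.3 CPM in LL. Creb3l3, a transcription factor known to induce Apoa4, Apoa5 and Apoc2, rose (0.10 ± 0.030 (SE), adjusted p = 0.0371), and Surf4, a cargo receptor for lipoprotein export, fell (-0.074 ± 0.021 (SE), adjusted p = 0.0323). With the clock component as a covariate only Nr1h4 and Nr0b2 still passed, and on log2(TPM + 1) by limma 0 of 53 did. The test for any difference between the 6 groups called 3 of 53, Nr1h4 and Nr0b2 among them, beside 1.88% of all genes. The PP group had a clock component of -0.62 ± 0.56 (SD, n = 9) and LL 0.50 ± 0.78 (SD, n = 10) without GKA, so that the component moved with genotype, and the 2 cannot be told apart, since the labels give no harvest time.

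Mice of the same group differed in these genes, and the differences were ordered. After the group mean was taken from each log2 CPM, 14 of 36 pairs of the 9 genes were correlated over 55 mice (Pearson, permutation within groups, adjusted p below 0.05 over the 36), 7 positively and 7 negatively. The strongest was between the VLDL scaffold and the lipase inhibitor: Apob and Apoc3 ran against each other (r = -0.85, rho = -0.80, adjusted permutation p = 0.00012 and 0.00018, r = -0.83 without the 2 mice farthest from the median, and -0.97 to -0.63 within the 6 groups). Apob also ran against Apoe (r = -0.63, rho = -0.68, adjusted permutation p = 0.00018 and 0.00024, r = -0.69 without the 2 mice farthest from the median) and with its partner Mttp (r = 0.64, rho = 0.68, adjusted permutation p = 0.00012 and 0.00018, r = 0.62 without the 2 mice farthest from the median, positive in 6 of 6 groups). Apoc3 ran with Apoe (r = 0.57, rho = 0.58, adjusted permutation p = 0.00012 and 0.00027, r = 0.58 without the 2 mice farthest from the median). The smallest permutation p possible was 1e-05.

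Among Apob, Mttp, Apoc3 and Apoe that pattern followed transcript length. For each library the slope of log2 CPM on log2 transcript length over all tested genes was computed, a measure added after the correlations were seen. Apob, the longest (mean length 11196 bases weighted by reads), rose with the slope (r = 0.86, rho = 0.88), as did Mttp (3803 bases, r = 0.53, rho = 0.59). Apoc3, the shortest (509 bases, r = -0.88, rho = -0.82), and Apoe (962 bases, r = -0.67, rho = -0.67) fell with it, each with an adjusted permutation p of at most 0.00031 over the 9 genes. For Apoa4 (r = 0.058, adjusted p = 0.706) and Angptl4 (r = -0.25, adjusted p = 0.115) the relation did not pass. Angptl8 (865 bases, r = -0.37) and Apoa1 (920 bases, r = -0.32) are shorter than Apoe but had a weaker r. Apoa5 (2120 bases) had r = -0.28, and its rank correlation did not pass (adjusted p = 0.0801). The slope had group means between -0.0085 and 0.011 and SDs of 0.064 to 0.14 log2 CPM per doubling of length. Group means were thus nearly equal, and with the slope as a covariate 0 of 9 genes were called in each of the 14 comparisons, while by LL genotype without GKA the DEGs over all genes went from 9 to 81 and the adjusted p of Apoa5 was 0.0554. In LL without GKA, mice 37, 43, 45 and 46 had slopes of -0.17, -0.11, -0.16 and -0.18. Their clock components, 1.06, 1.43, 1.19 and 1.60, were the highest of that group. PP mice 13 and 14 with GKA had components of 1.07 and 0.80 but slopes of 0.081 and 0.058. How far the clock-adjusted estimates reflect the length slope was not tested.

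**Figure D4:**
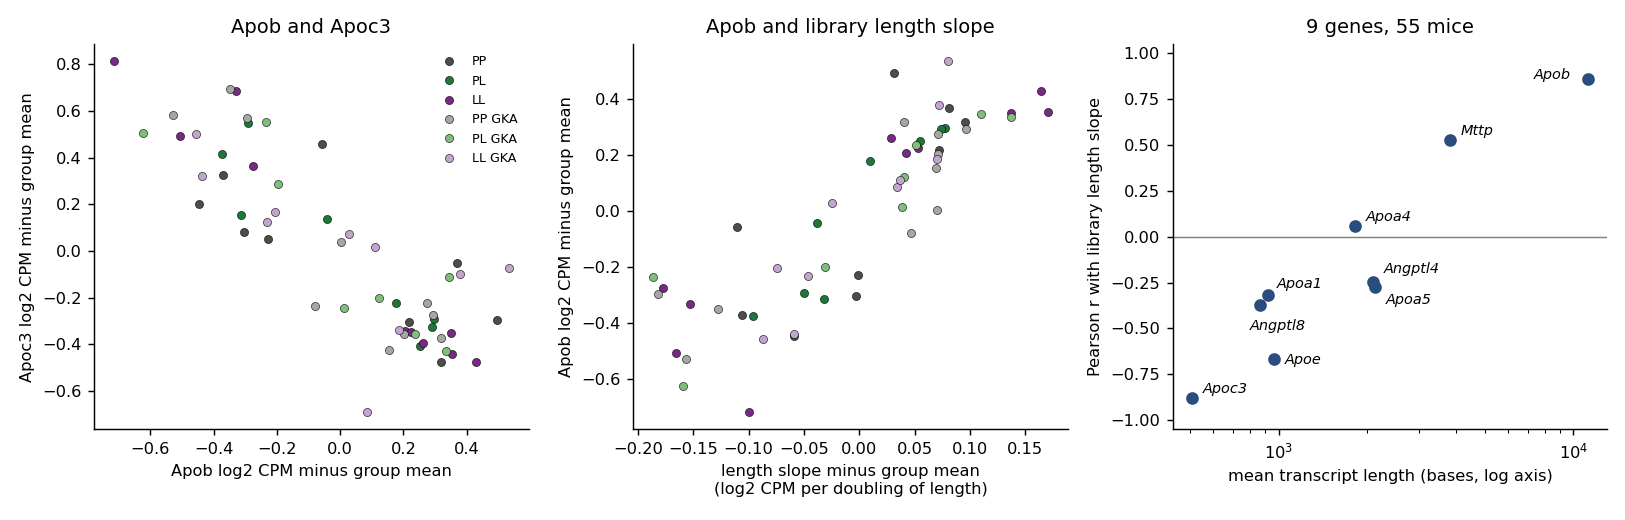
Points in the left and middle panels are 55 mice by group, after group means were removed: Apob against Apoc3 (log2 CPM; r = -0.85) and the library length slope against Apob (r = 0.86). The right panel sets the r of each gene with that slope against its mean transcript length on a log axis, from Apoc3 (-0.88) to Apob (0.86).

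With the slope removed from both genes, 7 of 36 pairs still passed by Pearson r, all of them among the 14. Apob and Apoc3 dropped to r = -0.39 (adjusted p = 0.0204) and Apob with Apoe to -0.16 (adjusted p = 0.542). Apob and Mttp, the assembly pair, kept r = 0.43. Mttp and Apoa1 ran against each other (r = -0.55, and -0.47 with the slope removed, adjusted p = 0.0164), but r was 0.37 on log2(TPM + 1). Apoc3 and Apoa5, which oppose each other at the lipase but lie in the same gene cluster, had r = 0.50, but a rank correlation of 0.33 that did not pass (adjusted p = 0.0718) and r = 0.15 on log2(TPM + 1). Apoa5 and Apoc3 each ran with Angptl4 (0.41 and 0.39), but on log2(TPM + 1) r was 0.23 and 0.064. Before the slope was removed, r of Apoa5 with Angptl4 was 0.45, and 0.34 without the 2 mice farthest from the median. Within groups it ran from 0.22 to 0.94, the highest in LL with GKA, which holds mouse 53. Apoc3 with Angptl4 ran from 0.00029 to 0.77 within groups. Apoa1 and Apoa4, also cluster neighbours, ran against each other in 6 of 6 groups (r = -0.44, rho = -0.43, adjusted permutation p = 0.00382 and 0.00645, r = -0.38 without the 2 mice farthest from the median), and r was -0.45 with the slope removed. On log2(TPM + 1) the sign turned in 6 of the 14 pairs, among them Apob with Apoc3, whose r was 0.015, Apoa1 with Apoa4 (0.16) and Apob with Apoe (0.30), and Apob with Mttp was 0.66.

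Each gene was then set against 3 measures of the state of the liver: the clock component, the mean of 16 fasting and PPARα genes, and the mean of 16 carbohydrate and ChREBP genes, 10 of 27 relations passing. Apoa4 followed the fasting list (r = 0.58, rho = 0.58, adjusted permutation p = 0.0004 and 0.00018, r = 0.59 without the 2 mice farthest from the median, 0.31 to 0.68 within groups) and the carbohydrate list (r = 0.50, rho = 0.51, adjusted permutation p = 0.00061 and 0.00059, r = 0.47 without the 2 mice farthest from the median, positive in 6 of 6 groups). Both stood with the length slope removed (0.66 and 0.53) and on log2(TPM + 1) (0.67 and 0.66). Its neighbour Apoa1 ran against the carbohydrate list (r = -0.51, rho = -0.50, adjusted permutation p = 0.00084 and 0.001, r = -0.48 without the 2 mice farthest from the median, negative in 6 of 6 groups, -0.65 with the slope removed), but on log2(TPM + 1) r was 0.011. Apoe followed the clock component (r = 0.54, rho = 0.58, adjusted permutation p = 0.00061 and 0.00018, r = 0.54 without the 2 mice farthest from the median, positive in 6 of 6 groups, 0.36 with the slope removed, where the rank correlation of 0.34 did not pass, adjusted p = 0.0685). Angptl4 and Angptl8 had no relation that passed: with the fasting list r was -0.25 for Angptl4 and -0.33 for Angptl8, and with the carbohydrate list -0.11 and 0.24.

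**Figure D5:**
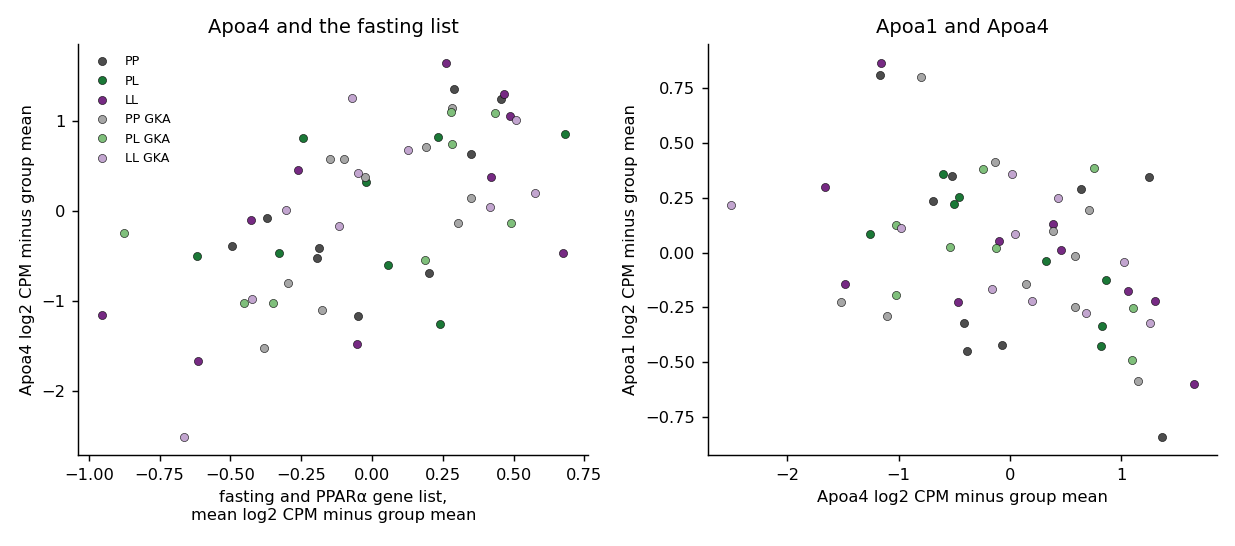
Points are 55 mice by group, with group means removed: on the left Apoa4 (log2 CPM) against the mean log2 CPM of the fasting and PPARα list (r = 0.58), on the right Apoa1 against Apoa4 (r = -0.44). Apoa4 has a positive r with the list in all 6 groups.

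Among 10002 tested genes with a median of at least 10 reads, those most like Apoa4 over the 55 mice, as a description, were Ephb2, an ephrin receptor (r = 0.88), Cidea, a protein of the lipid droplet surface that appears in fatty liver (r = 0.87), and Pex11a, a peroxisome division protein and target of PPARα (r = 0.85). Ephb2 and Cidea had medians of 15 and 11 reads, and Pex11a 427. Angptl4 was most like Pim3, a kinase (r = 0.74), Eif4ebp3, an inhibitor of translation initiation (r = 0.69), and Gpcpd1, a glycerophosphocholine phosphodiesterase (r = 0.64). Angptl8 was most like Nr0b2, named above (r = 0.64), Mid1ip1, an activator of fatty acid synthesis (r = 0.58), and Tinf2, a telomere protein (r = 0.58). The direction by L allele was not shared within that pair: Nr0b2 fell, and Angptl8 had a positive estimate that did not pass.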

How the data were processed

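Liver RNA of 56 mice was sequenced, and the authors quantified each library with Salmon 1.4.0 on the GENCODE M26 transcripts (GRCm39), after FastQC. The deposited files give, per transcript, an estimated count of reads and a TPM value, scaled by Salmon for length and depth. The strand setting is not given in the sources used here. Of 139225 transcripts, 137570 were matched to GENCODE vM39 gene names, and the estimated counts were summed per gene and rounded. Each library held 5189852 to 8093368 reads, and the lowest counts of a member were 79 (Angptl8) and 142 (Angptl4).

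Fits covered all genes that passed filterByExpr, with TMM scaling, in edgeR 4.0.16 (quasi-likelihood test, R 4.3.3), with p-values adjusted by Benjamini-Hochberg over all genes tested. In pairwise comparisons a gene was called at an adjusted p below 0.05 and a fold of at least 1.3 or at most 0.7, and elsewhere at an adjusted p below 0.05. The 14 comparisons share mice, so they are not independent of each other. DESeq2 1.42.0 (the package the study used), limma 3.58.1 on log2(TPM + 1), other scalings and filters, a clock covariate and leaving out mice were alternatives. Correlations used log2 CPM (prior count 2) less the group mean and 100000 permutations within groups (NumPy 2.4.6, SciPy 1.17.1). The fits were tested on simulated counts. The members and all gene lists were chosen with earlier results of these data known. All 9 members are named; of the 54 pathway genes those called, and else the 3 with the smallest p by LL genotype without GKA and per allele; and the 3 genes most like Apoa4, Angptl4 and Angptl8. A called pathway gene is counted but not reported here. PP mouse 7 was left out, as in the study. Each mouse is 1 library, no batch, litter or harvest time was given, and p-values measure the spread between these mice. No 2 libraries of a group were alike within sampling noise over 236 pairs.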

Additional observations from a re-analysis of the deposited data

Results flagged for a closer look

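Of 54 sets of mice (9 genes in 6 groups), 1 held a mouse far from the rest, where chance would mark about 1 in 20. Apoa5 in LL mouse 53 with GKA was 566 CPM, while the other 9 mice had 1165 to 1752 CPM. On the log2 CPM scale its gap to the next mouse was 0.639 of the range of the group.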

How the results depend on the processing

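Of 1260 fits of the 9 genes under the alternatives, 2 passed, both of Apoa5 by LL genotype without GKA (DESeq2, and without LL mouse 42). The number of the 9 called in that comparison was thus 1 with DESeq2 and 0 to 1 when 1 mouse was left out. Several small estimates changed sign without passing, and the cause was not tested. By LL genotype without GKA, on log2(TPM + 1) with limma, Mttp was 0.10, Apoc3 -0.67 and Apoa1 0.018, with PP mouse 7 kept Apoa1 was 0.020, and with the clock component as a covariate Mttp was 0.073, Apoc3 -0.57, Apoe -0.0025 and Angptl4 -0.32. With that covariate Mttp was 0.087 by LL genotype with GKA and 0.032 per allele, and Apoe -0.042 per allele. Leaving out 1 mouse moved Apob over -0.021 to 0.094, Apoc3 over -0.052 to 0.12, Apoa1 over -0.17 to 0.083, Apoa4 over -0.17 to 0.30 and Apoa5 over 0.34 to 0.45 without GKA, and Mttp over -0.066 to 0.017 with GKA.

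The count of pathway genes called by LL genotype with GKA was 3 with DESeq2, 0 without a filter, on TPM or with the clock component, 2 with the length slope, and 0 to 1 when 1 mouse was left out. Per allele it was 3 without a filter, 0 on TPM, 2 with the clock component and 8 with the length slope, and over the 6 groups 0 on TPM and 5 with the length slope. It was 1 for PL against PP without GKA with the clock component, and 1 for LL against PL with GKA by DESeq2 and in a fit of all 6 groups. Of the 14 pairs of genes correlated, 7 passed with the length slope removed and 8 kept their sign on TPM, and the relations with lists that passed went from 10 to 7 with the slope removed, 4 of them shared. No paired analysis was possible because each mouse number occurs in 1 group only.

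Angptl4 and Angptl8 had the fewest reads, so depth limits them most. Of genes changed 1.5-fold in simulated counts, 42.1% were called between PP and LL, and smaller changes were not simulated. Intervals hold for the edgeR fit only: by LL genotype without GKA, Apob, Apoc3, Apoe and Angptl4 with the clock component, and Apoc3 and Apoa5 on TPM, lay outside them.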
